A study of Arabidopsis thaliana with 18 samples.

Results

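The transcript response of wild-type Arabidopsis thaliana seedlings to tunicamycin (TM) was described from 6 of the 18 libraries of the series, the 3 labelled WT with TM and the 3 labelled WT with DMSO. The groups were taken from the sample titles, whose replicate numbers 1 to 3 also pair each TM library with a DMSO library. Both groups were whole seedlings, germinated and grown upright on plates of 1/2 MS-0 medium until 7 days old. They were then kept for 6 h in liquid 1/2 MS-0 medium with sucrose, either with 5 µg/mL TM or with DMSO, which served as the control. Neither WT group carries a mutation or a transgene, and the number of seedlings pooled into each library is not given in the sources used here. The series asks about the link between stress of the endoplasmic reticulum (ER) and autophagy, and its other 12 libraries are ire1b and ire1a ire1b seedlings under the same treatments. Those 12 entered the comparison through the choice of genes to test, the scaling and the estimate of the spread between replicates. The mean level that limits which genes are named below was also taken over all 18 libraries. Poly(A) RNA was sequenced, and 20615 of the 27416 gene identifiers with a count were abundant enough to be tested.

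Tunicamycin blocks the enzyme that starts the assembly of N-linked glycans on a lipid carrier in the ER membrane, so that glycoproteins entering the ER go without their sugars and fold poorly. Plant cells answer with the unfolded protein response. The sensor IRE1 splices the mRNA of the transcription factor bZIP60, proteases in the Golgi release the membrane-bound factor bZIP28, and NAC factors act with and after them, through promoter elements named ERSE and UPRE. The ER also makes the proteins of the cell wall, the cell surface and the vacuole, including transporters, peroxidases and proteases. Chaperones and other ER quality control genes are the textbook targets of this response, and the description here goes beyond them to transcription factors, hormone genes, transporters, enzymes and the other products of the secretory pathway, in 115 gene lists built on annotated names.

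The 6 libraries held 19127903 to 22986944 counts assigned to genes. On principal components of the 6, the first (45.1% of the variance) separated TM from DMSO, and the second (35.7%) set both replicate 1 libraries, at 43 and 34.8, apart from the other 4, at -24.9 to -14.2. The replicate 1 libraries of both treatments, with those of ire1a ire1b, therefore stand apart from replicates 2 and 3, and counts are given below also from a fit without these 4 libraries. Levels are in CPM, gene counts scaled by library size with edgeR's TMM factors, always in the order of replicates 1, 2 and 3, and folds are log2 differences, TM minus DMSO, ± standard error (SE), with n = 3 libraries a group. As a check of the treatment, BIP3, the inducible ER Hsp70, had 2.43, 3.65 and 1.81 CPM with DMSO and 2733, 3042 and 2882 CPM with TM, NAC103 was at log2 6.08 and BZIP60 at 1.38, all called higher, while both IRE1 genes, IRE1A (-0.10) and IRE1B (0.13), did not pass.

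Across the genome, 1264 genes rose and 1189 fell at an adjusted p below 0.05 (edgeR quasi-likelihood test, Benjamini-Hochberg adjustment). That is 11.9% of the tested genes, 6.13% higher and 5.77% lower, and these shares are the background for counts below that name no other fit. The labels do not say whether replicates came from separate cultures, so every p-value here rests on a spread among libraries that may be technical. The fit behind these counts does not pair libraries by replicate number. With the replicate number as a block within genotype, 2666 genes rose and 3145 fell, and without the 4 replicate 1 libraries 1641 rose and 1973 fell. The background of a count with the block is therefore 12.9% higher and 15.3% lower, and that of a count without replicate 1 is 7.96% higher and 9.57% lower. Of the 2453 genes, 2448 were also called in the same direction with the block and 2149 without replicate 1. The median log2 change over all tested genes was -0.02.

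The rises and the falls differed in shape. Of the genes that rose, 832 of 1264 changed by less than 0.5 on the log2 scale, and 103 changed by 2 or more, up to 10.09. Of the genes that fell, 389 of 1189 changed by less than 0.5 and 51 by 2 or more, up to 3.77, so the typical fall (median size 0.66) was larger than the typical rise (0.36). The genes that rose took 7.31 to 7.52% of all gene counts in the DMSO libraries and 14.1 to 14.8% in the TM libraries. The genes that fell went from 8.03 to 8.41% to 4.61 to 5.13%. These shares describe genes picked by the same comparison and are no test of it.

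**Figure D1:**
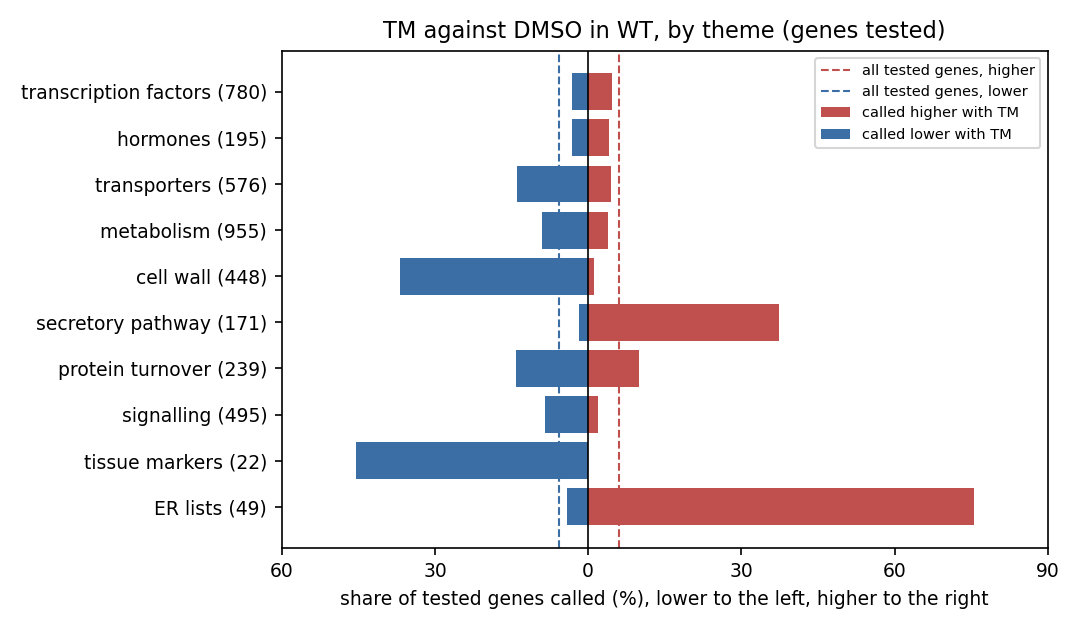
Share of tested genes called higher (red, to the right) and lower (blue, to the left) with TM in WT, in %, by theme, with the number of tested genes in brackets; dashed lines give the shares over all tested genes, 6.13% and 5.77%. Secretory pathway genes and the ER lists lie far to the right of the dashed line, and cell wall genes and tissue markers far to the left of theirs.

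By theme, the plot of shares shows that the responses were unequal. Of 171 secretory pathway genes, 64 rose and 3 fell. Of 448 cell wall genes, 5 rose and 165 fell. Transporter genes fell more often than they rose, with 26 higher and 80 lower of 576, and so did enzymes of metabolism, with 37 higher and 87 lower of 955. Transcription factor genes were called at a rate below that of all genes, 62 of 780 or 7.95%, with 37 higher and 25 lower. With the replicate block the counts were 46 and 201 for transporters, 94 and 246 for metabolism, 72 and 97 for transcription factors and 8 and 266 for cell wall genes. Without replicate 1 they were 28 and 150, 48 and 155, 47 and 54, and 5 and 203. Over the 115 lists, 28 held calls in the higher direction alone, 31 in the lower direction alone, 41 in both and 15 none.

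Markers of 3 tissues were followed because a whole seedling mixes them. Of 6 root hair markers 5 fell, and their summed level was 76.4 to 88.8 CPM with DMSO and 40.4 to 50.2 CPM with TM. Of 8 root endodermis markers 5 fell, with sums of 47.4 to 50.1 and 25.4 to 34.1 CPM. None of 8 green shoot markers was called, with sums of 11350 to 18190 and 11300 to 16250 CPM that overlapped. In bulk tissue, fewer cells of a type and less RNA per cell cannot be told apart. The part of these root markers in the falls reported below was not tested.

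Stretches of promoters are shown first for 6 of the 15 largest rises outside the ER lists. They show the letters of the known ER stress elements in genes that are not chaperones. The 6 are the largest of these rises with a match to ERSE or the UPRE core within 250 bases before the start. Larger rises without such a match, AT2G29260 among them, were passed over. The stretches are 90 bases each, upstream of the annotated start of transcription in RefSeq's TAIR10.1 genome, written 5′ to 3′ on the strand of the gene. Capitals mark a match to ERSE (CCAATNNNNNNNNNNCACG, N being any base), to the UPRE core (TGACGTG), or to both where they overlap, on either strand.
AT1G18830, chr1:6489110-6489199, plus strand: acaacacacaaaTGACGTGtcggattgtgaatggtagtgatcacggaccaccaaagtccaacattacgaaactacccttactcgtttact
AT3G51980, chr3:19287574-19287663, minus strand: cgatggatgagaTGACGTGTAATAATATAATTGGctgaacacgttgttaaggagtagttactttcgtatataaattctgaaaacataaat
ARFA1D, chr1:26565905-26565994, minus strand: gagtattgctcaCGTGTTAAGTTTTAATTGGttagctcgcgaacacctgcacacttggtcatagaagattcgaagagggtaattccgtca
GFAT, chr3:8701089-8701178, minus strand: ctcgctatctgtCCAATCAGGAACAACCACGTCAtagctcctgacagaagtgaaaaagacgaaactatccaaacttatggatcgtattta
UTR3, chr1:4913168-4913257, minus strand: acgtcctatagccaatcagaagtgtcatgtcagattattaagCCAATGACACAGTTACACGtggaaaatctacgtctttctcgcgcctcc
AT2G25460, chr2:10835723-10835812, minus strand: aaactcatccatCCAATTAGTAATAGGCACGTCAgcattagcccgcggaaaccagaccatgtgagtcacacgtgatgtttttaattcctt

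In AT3G51980, GFAT and AT2G25460 the ERSE and the UPRE core overlap at the CACG end of the ERSE. Of the 15 largest rises, 7 hold an ERSE in the window from 250 bases before to 50 bases after the start, and 8 hold an ERSE or a UPRE core. Of the 15 largest falls, 1 (KTI1) holds a UPRE core and none an ERSE.

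These 6 genes code for proteins of separate functions. AT1G18830 is annotated as a WD40 repeat protein and is listed here with the COPII coat of vesicles that leave the ER, ARFA1D encodes a small GTPase of the ARF family of vesicle coats, and UTR3 a transporter annotated for UDP-galactose. UTR3 stood at 28.4, 31.9 and 26.9 CPM with DMSO and 309, 318 and 309.5 CPM with TM (log2 3.42 ± 0.08, adjusted p = 1.61e-13). The ARFA1D values were 199.7, 252 and 239 CPM with DMSO and 2287, 2830.0 and 2573 CPM with TM (log2 3.48 ± 0.11, adjusted p = 1.94e-12). AT3G51980, an ARM repeat protein, had 26.8, 32.3 and 27.9 CPM with DMSO and 361, 399 and 389 CPM with TM (log2 3.72 ± 0.07, adjusted p = 2.99e-14). Genes among the 15 largest rises and the 15 largest falls were chosen on size and on lack of overlap between the groups, so both are given only as a description of them.

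GFAT encodes glutamine-fructose-6-phosphate aminotransferase, the enzyme that commits sugar to UDP-N-acetylglucosamine, the sugar donor used by the very step that TM blocks. Its level was 6.66, 9.3 and 7.25 CPM with DMSO and 74.9, 87.8 and 87.3 CPM with TM, a 10.8-fold difference (log2 3.43 ± 0.14, adjusted p = 6.85e-11). The later enzymes of the same short pathway were looked at after the GFAT value was seen. GNA1, the acetyltransferase, was at log2 0.25 (adjusted p = 0.428), DRT101, annotated as a phosphoglucosamine mutase, at 0.24 (adjusted p = 0.184), and the pyrophosphorylases GlcNAc1pUT1 and GlcNAc1pUT2 at 0.15 and 0.05 (adjusted p = 0.188 and 0.789). None of these 4 passed, and with the replicate block DRT101 did (adjusted p = 0.0231). GPT, which encodes the blocked transferase itself, rose from 20.02, 19.5 and 15.8 CPM with DMSO to 74.3, 70.6 and 65.4 CPM with TM (log2 1.92 ± 0.09, adjusted p = 4.97e-10), and AT3G57220, annotated in glycosyl transferase family 4, did not pass (log2 -0.01, adjusted p = 0.948).

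Several of the largest risers have little annotation. AT2G29260, an NAD(P)-binding Rossmann-fold protein, had 2.71, 1.73 and 2.28 CPM with DMSO and 30.8, 36.5 and 29.3 CPM with TM (log2 3.84 ± 0.17, adjusted p = 1.20e-10). AT4G34630 was at log2 3.59, the RING or PHD zinc finger gene AT4G32670 at 3.54, AT4G29520 at 3.42 and the SNARE-like AT1G29060 at 3.41. AT1G27330, a homologue of RAMP4, which sits beside the translocon, was at 3.33, the CLPTM1 family gene AT5G23575 at 3.11 and AT2G25460 at 2.92. All 8 were also called without the replicate 1 libraries.

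The 15 largest falls included several secreted and defence proteins. PR4, a chitin-binding pathogenesis-related protein, had 68.99, 61.3 and 102 CPM with DMSO and 15.9, 16.4 and 15.6 CPM with TM (log2 -2.28 ± 0.18, adjusted p = 2.50e-07). HCHIB, a basic chitinase, had 28.6, 20.4 and 35.5 CPM with DMSO and 6.97, 4.2 and 7.802 CPM with TM (log2 -2.16 ± 0.24, adjusted p = 1.45e-05), and its relative AT2G43610 had 30.6, 30.6 and 24.4 CPM with DMSO and 7.07, 4.92 and 6.83 CPM with TM (log2 -2.19 ± 0.16, adjusted p = 6.69e-08). How reads shared by near-identical copies or overlapping genes were counted is not given in the sources used here, which makes the division between such genes uncertain. The neighbouring genes AT3G16660 and AT3G16670, with a domain named for the pollen allergen Ole e 1, were at log2 -2.27 and -2.23, and AT5G10130 of the same family at -2.15. AT4G29270, an acid phosphatase of the HAD superfamily, was at -2.16. KTI1, a Kunitz trypsin inhibitor, varied between replicates, with 172, 67.1 and 126 CPM with DMSO and 37.2, 18.5 and 22.9 CPM with TM (log2 -2.22 ± 0.39, adjusted p = 0.00142).

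Among transcription factors, the NAC family had 7 members higher and 2 lower of 84 tested, and the bZIP family 6 higher and none lower of 45. WRKY factors, many of which act in pathogen responses, had none higher and 4 lower of 64, and AP2/ERF factors, which include ethylene and drought regulators, 3 higher and 5 lower of 94. Heat shock factors had 3 higher of 19, GATA factors 3 higher and 1 lower of 32, B-box factors 3 higher of 27, GRAS factors 3 higher of 31, and C2H2 zinc finger factors 2 higher of 61. R2R3 MYB factors had 3 higher and 5 lower of 96, bHLH factors 2 and 5 of 111, and homeobox factors 2 and 3 of 72. No TCP factor (18 tested) or Dof factor (26 tested) was called, against 1 higher and 3 lower TCP factors and 1 lower Dof factor with the block. With the replicate block the counts were 15 higher and 8 lower for NAC, 9 and 4 for bZIP, 2 and 6 for WRKY, and 6 and 25 for AP2/ERF factors. Without replicate 1 they were 10 and 6, 6 and 1, 1 and 9, and 1 and 12.

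Among NAC genes, NAC089, whose protein is tethered to membranes, stood at log2 3.09. NAC062, another membrane-bound factor known from ER stress, had 43.8, 70.1 and 67.2 CPM with DMSO and 216, 248 and 230.5 CPM with TM (log2 1.94 ± 0.15, adjusted p = 3.02e-07). TIP, a NAC protein named for its binding to a virus coat protein, had 40.4, 60.3 and 57.3 CPM with DMSO and 146, 178 and 168 CPM with TM (log2 1.64 ± 0.13, adjusted p = 2.45e-07). The 3 TM libraries of each gene lay above its 3 DMSO libraries, and in NAC062 and TIP the lowest DMSO value was that of replicate 1. In the other direction, RD26, a NAC factor of drought and abscisic acid responses, fell by a smaller amount, with 18.5, 14.04 and 15.9 CPM with DMSO and 11.5, 10.7 and 9.28 CPM with TM (log2 -0.63 ± 0.17, adjusted p = 0.0217), and NAC3 was at -0.60 (adjusted p = 0.0315). ATAF2 and NAC102, the most abundant NAC genes that did not pass, overlapped between treatments (log2 -0.15 and 0.09).

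The bZIP gene with the second largest change after BZIP60 was AT1G19490, which has no symbol in the annotation, at 3.21, 3.33 and 3.47 CPM with DMSO and 7.81, 8.22 and 8.52 CPM with TM (log2 1.29 ± 0.10, adjusted p = 1.19e-07). BZIP28, the membrane-bound partner in the ER response, rose less, from 47.5, 60.6 and 63.1 CPM with DMSO to 67.6, 80.1 and 85.6 CPM with TM (log2 0.45 ± 0.12, adjusted p = 0.023), with the pairs all in 1 direction. The bZIP68 gene, of the G-box binding factors, was at 0.31 (adjusted p = 0.0442). TGA1 and BZIP25 did not pass (0.13 and -0.07).

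Other families held single members that rose. GATA5 had 20.6, 23.2 and 24.5 CPM with DMSO and 60.1, 60.6 and 58.8 CPM with TM (log2 1.40 ± 0.11, adjusted p = 2.35e-07), and GATA1 had 51.97, 56.3 and 51.5 CPM with DMSO and 102, 117 and 116 CPM with TM (log2 1.07 ± 0.07, adjusted p = 1.54e-08), both without overlap and with tight replicates, while GATA9 fell (log2 -0.53, adjusted p = 0.00309). MYB48 rose from 6.54, 4.51 and 8.07 CPM with DMSO to 15.2, 13.2 and 13.4 CPM with TM (log2 1.13 ± 0.24, adjusted p = 0.00601). KNAT4, a homeobox gene of the KNOX class, was at 0.78, and the C2H2 gene AT4G25610 at 0.95. Among heat shock factors, HSFA1E (0.64), HSFA8 (0.63) and HSFA1D (0.39) rose, of which HSFA1D and HSFA1E belong to the class that starts the cytosolic heat response. None of 32 small heat shock protein genes, typical targets of that response, was called (median log2 -0.06, and 1 higher with the replicate block).

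All 4 WRKY calls were lower, a share of 6.25% of the 64 tested, near the 5.77% lower over all tested genes. WRKY30 had 8.799, 14.3 and 7.401 CPM with DMSO and 4.96, 5.33 and 1.84 CPM with TM (log2 -1.32 ± 0.34, adjusted p = 0.0192), WRKY69 was at -0.49, WRKY41 at -0.78 and WRKY28 at -0.70. The call of WRKY41 was lost without replicate 1 (adjusted p = 0.171), and that of WRKY28 was lost with the replicate block (adjusted p = 0.057). RAP2.9, an AP2/ERF factor, had 9.33, 8.02 and 12.8 CPM with DMSO and 4.17, 3.16 and 5.56 CPM with TM (log2 -1.23 ± 0.26, adjusted p = 0.00591). WRKY33, the regulator of camalexin synthesis and the most abundant WRKY gene, had 229, 467 and 410.3 CPM with DMSO and 382, 500.3 and 424 CPM with TM, and the groups overlapped (adjusted p = 0.64). MYB51, a regulator of indole glucosinolates, had 60.1, 138 and 135 CPM with DMSO and 66.3, 82.6 and 69.05 CPM with TM, with DMSO replicate 1 below every TM library. It did not pass in all libraries (log2 -0.61, adjusted p = 0.202), and was called lower without replicate 1 (adjusted p = 0.00561).

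**Figure D2:**
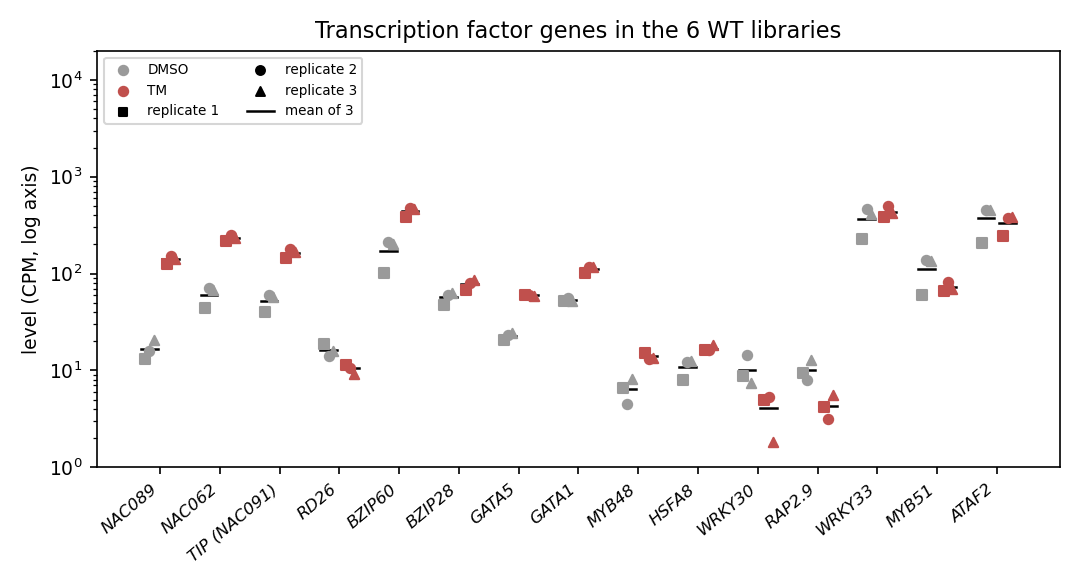
Levels in CPM (log axis) of 15 transcription factor genes in the 3 DMSO (grey) and 3 TM (red) libraries of WT, with marker shape for the replicate and a line for the mean of 3. NAC089, NAC062, TIP, GATA5 and GATA1 separate fully between treatments, while ATAF2, WRKY33 and MYB51 overlap, with their lowest DMSO values in replicate 1.

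Hormone genes had few calls, with 8 higher and 6 lower of 195 (7.18% called). Of auxin genes, IAA19, a rapid auxin target that represses the response, rose from 13.5, 15 and 15.4 CPM with DMSO to 23.8, 22.8 and 24.4 CPM with TM (log2 0.70 ± 0.11, adjusted p = 0.000677), and the auxin response factor ARF18 was at 0.66 (adjusted p = 0.000121). The GH3 genes, whose enzymes join auxin or jasmonate to amino acids, went both ways. GH3.1 was at 0.98 (adjusted p = 0.0124), DFL1 at -0.52 (adjusted p = 0.0167) and GH3.17 at -0.46 (adjusted p = 0.00446). ARR3, a type-A response regulator induced by cytokinin, was at 1.39 from low counts (0.658, 1.32 and 1.66 CPM with DMSO and 1.82, 3.12 and 4.49 CPM with TM). PP2CA, a phosphatase that holds back abscisic acid signalling, was at 0.41 (adjusted p = 0.00378). None of 16 auxin carrier genes was called in all libraries (median -0.25), whereas 11 were lower with the replicate block and 4 without replicate 1.

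Most transporter families had more falls than rises, as the plot of families shows. Aquaporins, the water channels, had none higher and 10 lower of 30, with a median log2 change of -0.52 against -0.02 for all genes, and the lower count was 23 with the replicate block and 18 without replicate 1. PIP2;4 of the plasma membrane had 19.1, 18.3 and 18.5 CPM with DMSO and 11.4, 7.09 and 8.16 CPM with TM (log2 -1.07 ± 0.14, adjusted p = 0.000115). TIP4;1 of the tonoplast had 8.96, 9.98 and 10.9 CPM with DMSO and 4.67, 5.55 and 4.95 CPM with TM (log2 -0.97 ± 0.11, adjusted p = 1.37e-05). Both were lower in all TM libraries. TIP2, an abundant tonoplast member, had 1462, 843 and 854 CPM with DMSO and 811, 496 and 414 CPM with TM, with both replicate 1 libraries above the others of their group. It did not pass (adjusted p = 0.0721), and passed with the block (adjusted p = 2.42e-05) and without replicate 1 (adjusted p = 3.36e-05). The family's summed level was 3991 to 6016 CPM with DMSO and 2553 to 3940 CPM with TM.

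**Figure D3:**
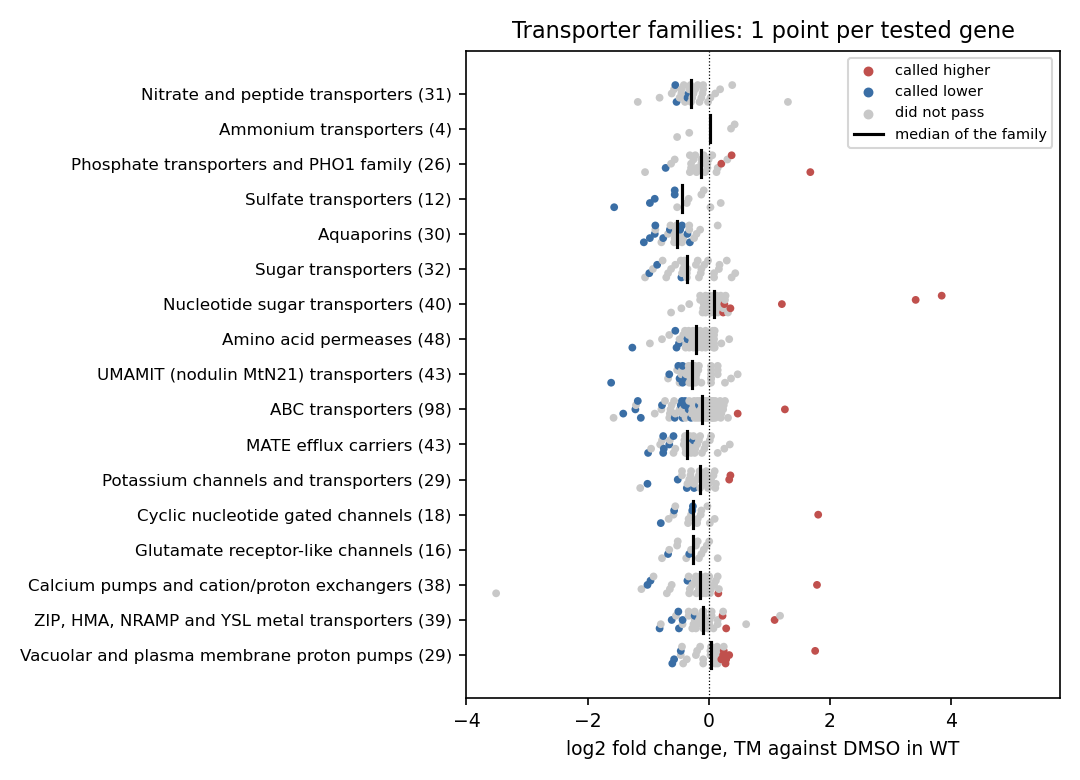
Log2 fold change, TM against DMSO in WT, for every tested gene of 17 transporter families, with the number tested in brackets; points in red were called higher, in blue lower and in grey not, and the black bar is the family's median. Medians of aquaporins (-0.52) and sulfate transporters (-0.44) lie left of 0, while UTR1 and UTR3 stand at the far right among nucleotide sugar transporters.

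Sulfate transporters had none higher and 5 lower of 12 (median -0.44). SULTR1;1, a root uptake carrier that responds to sulfur supply, had 5.43, 5.56 and 6.99 CPM with DMSO and 2.41, 1.897 and 1.78 CPM with TM (log2 -1.56 ± 0.18, adjusted p = 2.55e-05). SULTR2;1, which moves sulfate through the vasculature, had 138, 133 and 150.2 CPM with DMSO and 81.3, 64.1 and 69.05 CPM with TM (log2 -0.97 ± 0.09, adjusted p = 1.67e-06). Both differed without overlap, and SULTR3;2 (-0.89) and SULTR4;1 (-0.56) fell as well. SULTR1;2, the most abundant member, did not pass (-0.36, adjusted p = 0.338), and its groups overlapped. None of the 15 enzymes of nitrate and sulfate assimilation was called, and 2 fell with the block.

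Some nitrogen carriers fell. Of 31 nitrate and peptide transporters 4 were lower, including NRT1.7 of phloem loading (149, 155 and 149.8 CPM with DMSO and 121, 99.9 and 88.7 CPM with TM, log2 -0.55) and the peptide transporter PTR2 (-0.35), while NRT1.1, the dual affinity sensor and carrier, overlapped between treatments (0.19, adjusted p = 0.467) and was called higher with the block (adjusted p = 0.032). With the block 2 were higher and 13 lower. Of 48 amino acid permeases 5 were lower (18 with the block), with AAT1 at -1.26 and AAP1 at -0.53. Of 43 UMAMIT transporters, which export amino acids or auxin, 7 were lower (15 with the block), and UMAMIT4 had 10.8, 14.5 and 15.4 CPM with DMSO and 4.22, 4.29 and 4.74 CPM with TM (log2 -1.61 ± 0.15, adjusted p = 2.15e-06).

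Efflux families also had more falls than rises. MATE carriers had none higher and 8 lower of 43 (21 lower with the block), of which ZF14 was at -0.75 and AT5G52450 at -0.74. The list of ABC transporters, matched on annotated names, had 2 higher and 15 lower of 98 (6 and 33 with the block). Some of its members carry no ABC subfamily symbol, and the 2 that rose are ABCG10 and a gene of that kind. ABCC4 was at -0.77 and ABCB2 at -0.56, and ABCG10 rose from a low level (log2 1.26). PEN3, an abundant ABC exporter in penetration resistance, had 1558, 2656 and 2424 CPM with DMSO and 1355, 1570.0 and 1293 CPM with TM and was close to the threshold (log2 -0.65, adjusted p = 0.0517). It passed with the block (adjusted p = 0.0246) and without replicate 1 (adjusted p = 0.0032). Of 32 sugar transporters 3 fell (15 with the block), with the polyol carrier PMT5 at -0.85 and ERD6 at -0.45.

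Ion channels and metal carriers gave single changes in both directions. CNGC19, a calcium-permeable channel, rose from 1.65, 3.46 and 2.38 CPM with DMSO to 7.46, 9.57 and 9.03 CPM with TM (log2 1.81 ± 0.22, adjusted p = 4.40e-05). Of the 18 tested members of the cyclic nucleotide gated channel list 4 others fell, among them CNGC10 (-0.79) and CNGC14 (-0.57). That list was matched on annotated names, and not every member carries a CNGC symbol. The list of ZIP, HMA, NRAMP and YSL metal carriers was matched on annotated names, and some members, ZAT and AT2G04620 among them, carry none of these symbols. It had 3 higher and 6 lower of 39 (6 and 12 with the block). The 3 that rose were NRAMP2 (0.29), AT2G04620 (0.23, a call lost without replicate 1, adjusted p = 0.196) and, as a further example outside the naming rule, ZIP9 (1.09). Among those that fell were the zinc carriers ZAT, which loads the vacuole, and HMA4, which loads the xylem. ZAT had 73.1, 73.6 and 72.1 CPM with DMSO and 50.6, 48.5 and 43.9 CPM with TM (log2 -0.61 ± 0.06, adjusted p = 7.17e-06), and HMA4 was at -0.50 and ZIP3 at -0.81. FRO3, an iron reductase, rose (log2 0.80, adjusted p = 0.000996), and its relatives FRO4 (-0.69) and FRO8 (-0.82) fell. SKOR, which releases potassium into the xylem, was at -1.01, and its DMSO replicate 1 lay inside the range of the TM libraries.

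Among transporters of the endomembrane system rises were found. Among nucleotide sugar transporters 6 rose and none fell of 40, of which UTR1 was at 3.85, UTR3 at 3.42 and AT2G43240, of the same fold, at 1.21 (12.9, 12.6 and 13.3 CPM with DMSO and 29.2, 32.1 and 28.8 CPM with TM). ECA4, annotated as an endomembrane calcium pump, had 93.7, 98.7 and 101 CPM with DMSO and 301, 348 and 366 CPM with TM (log2 1.79 ± 0.07, adjusted p = 5.79e-11), whereas its close copy ECA1 had 95.6, 105 and 97.5 CPM with DMSO and 112, 111 and 111 CPM with TM (log2 0.16 ± 0.05, adjusted p = 0.0459). The ECA1 call was lost without replicate 1 (adjusted p = 0.144). The 2 genes are near-identical, so the division of reads between them is uncertain. The plasma membrane calcium pumps ACA8 and ACA9 fell (-0.35 and -1.01).

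Proton pumps, which energise transport, had 7 members higher and 3 lower of 29. VP2, a proton pyrophosphatase of the Golgi in its known location, had 137, 133 and 131 CPM with DMSO and 448, 460.3 and 447 CPM with TM (log2 1.76 ± 0.05, adjusted p = 1.43e-12). AVP1, the vacuolar form, had 605, 502 and 439 CPM with DMSO and 417, 371 and 355 CPM with TM, which was lower without overlap but did not pass (log2 -0.44, adjusted p = 0.0555), and passed with the block (adjusted p = 1.11e-05) and without replicate 1 (adjusted p = 0.00369). Of the membrane subunits of the vacuolar-type ATPase, VHA-A1 of the early endosome was at 0.34 and VHA-A2 of the vacuole at -0.60, in opposite directions and both called. HA1, a main proton pump of the plasma membrane, had 1487, 1492 and 1707 CPM with DMSO and 1113, 1066 and 1225 CPM with TM (log2 -0.46 ± 0.10, adjusted p = 0.00541), and HA3 was at -0.57. HA2, the other main pump, overlapped (log2 -0.09, adjusted p = 0.907). PHT4;1, a phosphate transporter of plastids, rose from 23.6, 24.1 and 19.5 CPM with DMSO to 68.4, 80.3 and 66.5 CPM with TM (log2 1.68 ± 0.11, adjusted p = 2.43e-08), and the mitochondrial carrier PHT3;1 was at 0.38.

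**Figure D4:**
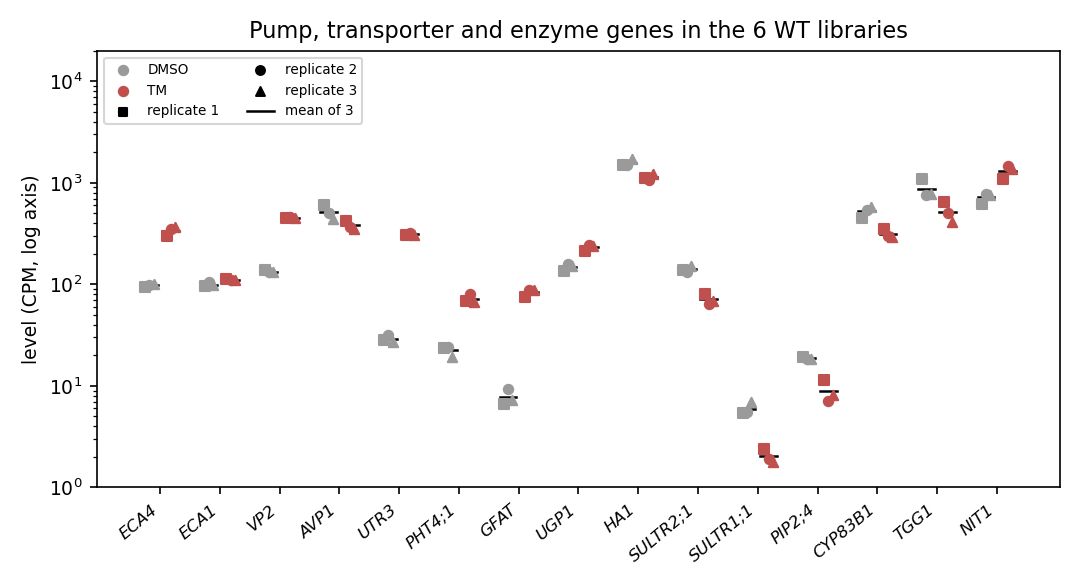
Levels in CPM (log axis) of 15 pump, transporter and enzyme genes in the 3 DMSO (grey) and 3 TM (red) libraries of WT, with marker shape for the replicate and a line for the mean of 3. ECA4, VP2, UTR3, PHT4;1 and GFAT lie far higher with TM, beside the small ECA1 difference and the lower values of AVP1, HA1, both SULTR genes and PIP2;4.

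In sugar metabolism, several enzymes that supply sugar nucleotides rose by small amounts. Of 32 nucleotide sugar interconversion enzymes 4 rose and none fell, led by UGP1, which makes UDP-glucose, at 137, 159 and 151 CPM with DMSO and 212, 244 and 236 CPM with TM (log2 0.63 ± 0.09, adjusted p = 0.000129), and RHM3, which makes UDP-rhamnose, at 50.5, 48.1 and 43.5 CPM with DMSO and 70.2, 72.3 and 68.9 CPM with TM (log2 0.57 ± 0.09, adjusted p = 0.000412). With the block 9 rose and 6 fell. The sucrose phosphate synthase genes SPS2F (0.52) and SPS1F (0.50) rose. Of 46 glycolysis genes 5 rose and 1 fell, among them PFK7 (0.43) and HXK1 (0.29). With the block 19 glycolysis genes rose and 2 fell, and without replicate 1 it was 7 and 1. GolS1, which makes galactinol, was at 0.70.

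Some phenylpropanoid genes fell. Of 20 genes of lignin monomer synthesis none rose and 5 fell (13 with the block, 9 without replicate 1), at a median of -0.40. C4H, the second enzyme of the pathway, had 422, 770.3 and 737 CPM with DMSO and 271, 389 and 359 CPM with TM (log2 -0.92 ± 0.27, adjusted p = 0.0406). PAL2, the entry enzyme, had 216, 339 and 304 CPM with DMSO and 180.1, 194 and 173 CPM with TM (log2 -0.65 ± 0.19, adjusted p = 0.0321), and CYP98A3 was at -0.61. In C4H the TM libraries were all below the DMSO libraries, although DMSO replicate 1 was well below the other 2. Of 16 laccases, which couple lignin units in the wall, 3 fell: LAC3 (-1.25), IRX12 (-0.87) and LAC17 (-0.69). Of 20 dirigent genes, which steer that coupling, 8 fell, with DIR6 at 37.7, 48.6 and 42.4 CPM with DMSO and 22.4, 26.4 and 21.1 CPM with TM (log2 -0.88 ± 0.16, adjusted p = 0.00189), and 13 fell with the block. None of 12 flavonoid genes was called (median -0.31, and 3 lower with the block).

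Among the large enzyme families, cytochrome P450 genes had 4 higher and 23 lower of 190 (9 and 67 with the block). CYP712A1 rose from 6.62, 7.203 and 6.16 CPM with DMSO to 22, 22.4 and 22.6 CPM with TM (log2 1.74 ± 0.09, adjusted p = 1.93e-09), and CYP706A1 fell from 189, 454 and 382 CPM with DMSO to 137, 197 and 141 CPM with TM (log2 -1.11 ± 0.31, adjusted p = 0.0298), with 1 DMSO value, replicate 1, inside the range of TM. Family 1 UDP-glycosyltransferases were called evenly in number, 8 higher and 7 lower of 119. Log2 changes of the tested members ran from -1.13 to 5.61. UGT71C2 was at 0.59, far below the largest, and AT5G53990 at -1.13. UGT74E2, the most abundant of them, had 270.4, 970.5 and 1106 CPM with DMSO and 316, 719 and 716 CPM with TM, where the difference between replicate 1 and the others exceeded that between treatments. Glutathione S-transferases had 2 higher and 2 lower of 52, with ERD9 at 1.22 and GSTU22 at 1.16. Of 59 GDSL lipases none rose and 17 fell (31 with the block), among them ESM1, which modifies glucosinolate breakdown, with 255, 217 and 148 CPM with DMSO and 111, 114 and 74.2 CPM with TM (log2 -1.05 ± 0.20, adjusted p = 0.00276). The family's sums were 1885 to 2097 CPM with DMSO and 1097 to 1319 CPM with TM.

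The list of nitrile specifier proteins, nitrilases and myrosinases, which act in glucosinolate breakdown, had 2 higher and 7 lower of 16 (3 and 7 with the block). TGG1 and TGG2 encode myrosinases, the enzymes that cut glucosinolates. TGG1 had 1082, 764 and 779 CPM with DMSO and 642, 503 and 413 CPM with TM (log2 -0.75 ± 0.19, adjusted p = 0.0189), and TGG2 was at -0.71. CYP83B1, of indole glucosinolate synthesis, had 452, 544 and 577 CPM with DMSO and 349.6, 301 and 293 CPM with TM (log2 -0.74 ± 0.15, adjusted p = 0.00429), and CYP79B3, one step before it, was at -0.63, the 2 of 22 synthesis genes called with all libraries (5 with the block and 9 without replicate 1, all lower). NIT1, a nitrilase that acts on products of this pathway, went up, with 613, 781 and 761 CPM with DMSO and 1098, 1481 and 1357 CPM with TM (log2 0.87 ± 0.12, adjusted p = 0.000181).

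In sterol synthesis 3 genes rose and 4 fell of 24, with SQS1, squalene synthase, at 0.46, SQE6 at -1.26 and HYD1 at -0.36. HMG1, an HMG-CoA reductase early in the pathway, had 798, 513 and 537 CPM with DMSO and 530.2, 363 and 347 CPM with TM. It did not pass (adjusted p = 0.0884), and passed with the block (adjusted p = 2.19e-06) and without replicate 1 (adjusted p = 4.13e-05). In phosphatidylcholine synthesis CCT1 rose slightly (0.26) and AAPT1 fell (-0.34). None of 22 genes for catalase, superoxide dismutase, ascorbate peroxidase and alternative oxidase was called (2 higher and 1 lower with the block), and among 51 thioredoxin, glutaredoxin and peroxiredoxin genes 2 rose and 1 fell, and UNE5, a disulfide isomerase of the ER, was at 2.36.

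All 11 cell wall lists held genes that fell. Extensins and proline-rich proteins, which crosslink the wall, had none higher and 17 lower of 26 (median -0.74). EXT4 had 1084, 1783 and 1598 CPM with DMSO and 484, 481 and 363 CPM with TM (log2 -1.75 ± 0.26, adjusted p = 0.000392), and EXT3 had 1549, 1935 and 2550.0 CPM with DMSO and 822, 844 and 989 CPM with TM (log2 -1.18 ± 0.20, adjusted p = 0.000807). In both, the TM values lay below all DMSO values. PRP1, of root hairs, was at -2.06, beside the fall of the root hair markers. Pectin methylesterases and their inhibitors had 1 higher and 22 lower of 57, with AT5G04960 at -1.76 and AT2G45220 at -1.55, and polygalacturonases and pectate lyases 1 and 14 of 57. Glycosyl hydrolases of families 17 and 9 with chitinases had 1 higher and 20 lower of 57 (39 lower with the block), and GH9A3 was the one that rose (1.35).

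Lists of enzymes that build wall polymers had few calls. The share called was 11.4% for cellulose synthase and related genes, all lower, beside 5.77% lower over all tested genes. It was 14.3% for callose synthases, beside 11.9% called in either direction over all tested genes. Of 35 cellulose synthase and related genes 4 fell (10 with the block), including IRX1 of secondary walls (-0.55) and CSLC12 of xyloglucan synthesis (-0.83). CESA1 and CEV1, the abundant subunits of primary wall synthesis, overlapped between treatments (-0.11 and -0.08). Of 14 genes in the callose synthase list 1 rose and 1 fell, GSL10 (-0.22).

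Many vesicle traffic genes of the early secretory pathway rose. The COPI coat, which returns cargo to the ER, had 8 higher of 10, COPII with SAR1 11 higher of 15, and p24 cargo receptors 7 higher of 11, with none lower in any of the 3. The sizes were uneven within each list. Log2 changes ran from 0.20 to 4.06 in COPI, from 0.04 to 9.35 in COPII with SAR1 and from -0.25 to 4.97 in p24 receptors. The members of these lists named next are examples and leave out the largest rise of each. In COPI, the alpha subunit gene AT1G62020 had 129, 137 and 121 CPM with DMSO and 568, 644 and 629.7 CPM with TM (log2 2.25 ± 0.08, adjusted p = 1.04e-11), while the beta subunit AT4G31490 was at 0.33 and the epsilon subunit AT1G30630 at 0.44. In COPII, SAR1B had 115, 140.1 and 123 CPM with DMSO and 299, 322 and 329 CPM with TM (log2 1.33 ± 0.08, adjusted p = 4.47e-09), and SAR2 did not pass (0.04, adjusted p = 0.749). Among p24 receptors, p24delta5 had 40.3, 47.5 and 50.4 CPM with DMSO and 165, 175 and 181 CPM with TM (log2 1.91 ± 0.09, adjusted p = 2.11e-10), and p24beta2 was at 1.52. In the SNARE list, matched on annotated names, 10 of 44 genes rose (22 with the block). The SNARE-like AT1G29060 named above is not in this list. Its largest rise was TNO1, annotated not as a SNARE but as a partner of the SNARE SYP41 at the trans-Golgi network. TNO1 had 95.7, 112 and 106 CPM with DMSO and 386, 449 and 460.5 CPM with TM (log2 2.05 ± 0.08, adjusted p = 1.63e-11).

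The 26S proteasome, which degrades proteins marked by ubiquitin, had 16 subunit genes higher, none lower and 24 not passing of 40, with 33 higher and 1 lower with the block, and 28 higher without replicate 1. Its median log2 change was 0.20, and its sums of 3261 to 3546 CPM with DMSO and 3654 to 4123 CPM with TM did not overlap. RPT5B of the regulatory particle was at 0.47, and PAD1 and PBD2 of the core were at 0.40 and 0.36. Of 41 ubiquitin conjugating enzymes 4 rose and none fell (12 and 5 with the block).

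Families of vacuolar and secreted proteases had more falls than rises. Subtilases had none higher and 8 lower of 33 (20 with the block), and aspartyl proteases 1 higher and 16 lower of 52, with AT3G54400 at -1.19 and AT1G03220 at -1.13. GAMMA-VPE, the vacuolar processing enzyme of vegetative tissue, had 85.3, 84.6 and 92.1 CPM with DMSO and 40.96, 41.8 and 44.1 CPM with TM (log2 -1.05 ± 0.06, adjusted p = 7.44e-09). Papain-type proteases had 2 higher and 7 lower of 28. The 2 that rose were AT2G21430, with 1.97, 1.92 and 2.12 CPM with DMSO and 10.9, 11.4 and 10.2 CPM with TM (log2 2.43 ± 0.16, adjusted p = 2.48e-08), and AT3G45310 (0.90), in a family where AT4G01610 (-0.85) fell. MC4, the most abundant metacaspase, rose (log2 0.38, adjusted p = 0.00114).

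Pathogenesis-related proteins and defensins had none higher and 13 lower of 30 (median -0.58), with sums of 677 to 780 CPM with DMSO and 448 to 495 CPM with TM. OSM34, an osmotin, was at -2.04. Intracellular immune receptors of the TIR and CC classes had none higher and 3 lower of 115, and 1 higher and 20 lower with the block. Leucine-rich repeat kinases had 2 higher and 17 lower of 160 (5 and 60 with the block), and cysteine-rich receptor kinases 4 lower of 39, with CRK28 at -0.65 and CRK29 at -0.59. Among calcium dependent kinases and CIPKs 5 rose and 1 fell of 57, led by CPK15, which had 1.27, 2.01 and 1.09 CPM with DMSO and 4.12, 5.06 and 4.28 CPM with TM (log2 1.62 ± 0.22, adjusted p = 0.000124). Of 48 MAP kinase cascade genes 2 rose, MKK3 (0.36) and YDA (0.24).

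Lists of basic growth functions had few calls. Of 43 core histone genes 3 rose and none fell, none of 31 A, B and D cyclins was called (3 higher and 7 lower with the block), and none of 16 clock genes was (1 higher and 4 lower with the block).

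The promoter elements shown above were counted over 26718 genes with a TAIR10.1 start site, of which 20492 were tested. An ERSE was in 0.865% of all promoters and 0.626% of the promoters of tested genes that were not called. It was in 7.77% of the promoters of genes that rose and in 0.337% of those that fell. Among genes that rose by a log2 of at least 1 outside the ER lists, 31 of 187 (16.6%) held one, and among the 298 that fell by at least 1 none did. The variant ERSE-II (ATTGGNCCACG) was too rare to compare, in 19 promoters in all.

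The UPRE core was in 3.46% of all promoters, 3.57% of those not called, 8.8% of those that rose and 2.78% of those that fell, and in 16.6% of the strong risers outside the ER lists. The G-box (CACGTG), a common element that shares letters with the CACG end of the ERSE and with the UPRE core, was in 7.79% of all promoters, 8.27% of those not called, 16.5% of those that rose and 5.72% of those that fell. UPRE-III (TCATCG) was at 8.55, 8.22, 9.2 and 7.91% in the same order, and the 4 values were close to each other. Taken as ERSE, ERSE-II or UPRE core, a match was present in 51 of the 187 strong risers outside the ER lists (27.3%), so most of these genes hold none in this window. Matches are letter matches on either strand and not tested binding sites.

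**Figure D5:**
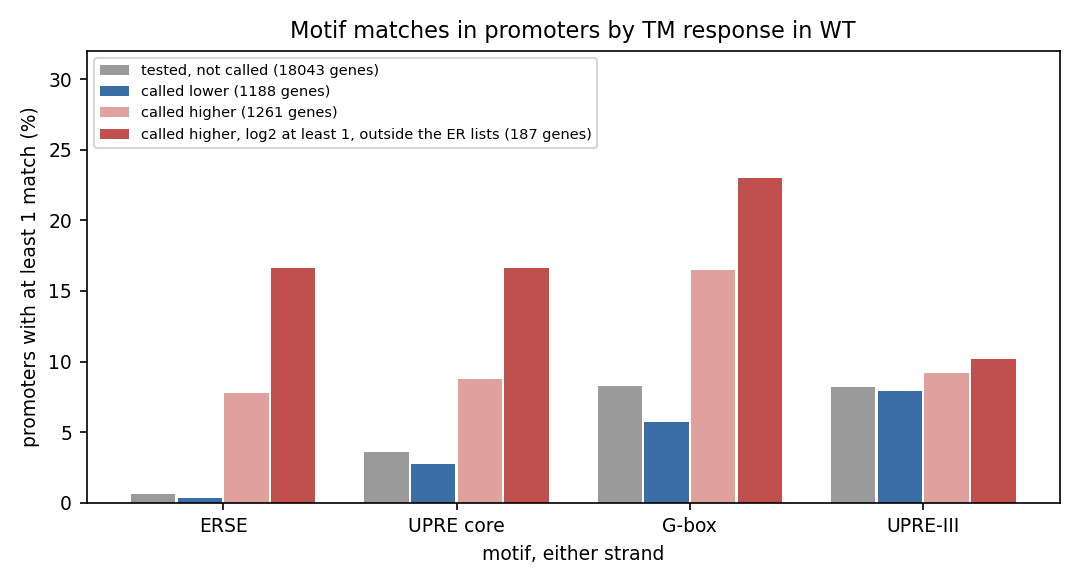
Share of promoters, in %, with at least 1 match on either strand in the window from 250 bases before to 50 bases after the start, for tested genes not called, called lower, called higher, and called higher with a log2 change of at least 1 outside the ER lists. ERSE, UPRE core and G-box shares rise from left to right within each cluster of bars after the blue one, while the UPRE-III shares differ little.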

How the data were processed

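Gene read counts were measured by paired-end RNA-seq in 18 libraries, 6 of them WT. Per the submitters' processing notes, the authors used STAR 2.4.0, TAIR10, HTSeq 0.6.0 and DESeq2, and the deposited values are whole-number counts per gene with no normalization. Strand setting, counting mode and annotation version are not given in the sources used here. Summary lines that name no gene were left out. In the WT libraries, as shares of all counts with these lines included, reads without a feature came to 1.2 to 1.36%. Ambiguous reads came to 1.11 to 1.18% and reads not aligned uniquely to 3.33 to 3.71%.

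Groups and replicate numbers come from the sample titles, with which another label field disagreed. Counts were filtered with filterByExpr, scaled by TMM and fitted with edgeR 4.0.16 (R 4.3.3) by the robust quasi-likelihood test, with 1 mean for each group over 18 libraries and Benjamini-Hochberg adjustment over 20615 genes. The standard error is the fold change divided by the square root of F. The scripts were tested on simulated data. Same-numbered DMSO and TM libraries deviated together (r = 0.691, 0.506 and 0.498 for replicates 1 to 3, each over 0.1), so the numbers were taken as pairs. The main fit, behind every count, standard error and adjusted p-value that names no other fit, does not use this pairing. A fit with the replicate block within each genotype does. It is given where it changes the call of a named gene, but beside only some of the list counts. A list count given without it may differ with the block. DESeq2 1.42.0, other scalings, other filters and left-out libraries were the alternatives.

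The members and lists were chosen with earlier results of these data known. Lists were matched on annotated names, and for 5 of them false matches were removed on names alone after values had been seen. Named genes are the 15 largest changes in each direction (mean log2 CPM of at least 2, no overlap, outside the ER lists), and in each list up to 4 called members in each direction (mean log2 CPM of at least 1) and up to 2 abundant members that did not pass. The ER lists left out of the largest changes also include translocon, glycan, signal peptidase and signal recognition lists. Promoters and annotations are from RefSeq TAIR10.1, matched to 26719 of 27416 identifiers.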

Additional observations from a re-analysis of the deposited data

How the results depend on the processing

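Against 2453 genes called (1264 higher, 1189 lower), the WT libraries alone gave 848 (395 and 453). The replicate block gave 4142 (2002 and 2140) over all libraries, 5811 (2666 and 3145) within each genotype and 4418 (1835 and 2583) in WT alone. Without the 4 replicate 1 libraries of WT and ire1a ire1b, 1973 genes were lower and 1641 higher. A test against a log2 change of 1 left 191 (143 and 48). Leaving out 1 library at a time gave 1553 to 2380 genes, 787 to 1227 higher and 766 to 1173 lower, the fewest without TM replicate 2, and 1606 (833 and 773) without TM replicate 3. RLE scaling, DESeq2, both filters, thinning and the fit without robust dispersion stayed within 1.5 times.

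Of 185 genes named in the text, ZIP9 aside, 161 were called, and none of these changed sign under any alternative. DESeq2 kept all 161 calls, the fit without the replicate 1 libraries 158 and the WT libraries alone 103. With the block within each genotype 160 were kept and 6 of 24 others were gained, each given beside its gene. That block changed no other named call, and the block in WT alone lost ECA1 (adjusted p = 0.056) and MKK3 (adjusted p = 0.0682). Among genes that did not pass, leaving out 1 library changed the sign of 7, which ranged from -0.06 to 0.03 for AT3G57220, from -0.43 to 0.03 for ATAF2, from -0.27 to 0.05 for CESA1, from -0.17 to 0.01 for CEV1, from -0.34 to 0.13 for HA2, from -0.09 to 0.23 for NAC102 and from -0.00 to 0.45 for WRKY33. The cause was not tested.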
